A study of Homo sapiens with 12 samples.

Results

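The genes described here are 39 genes of homologous recombination, DNA end resection and the Fanconi pathway, out of 60583 genes in the count tables. They were chosen by function and found by exact symbol, a rule that uses no measured value, although earlier results of these data were known when it was set, and 37 of the 39 had enough reads to be tested. TT-seq, which captures and sequences RNA labelled with 4-thiouridine shortly before harvest, gave nascent RNA from 12 libraries in 4 groups of 3 replicates. U2OS, a human osteosarcoma cell line, was transfected with a control siRNA (siCtrl) or with an siRNA against INTS11 (siINTS11), and the labels name no further treatment for it. U2OS-AsiSI, the same line carrying the AsiSI-ER fusion of a restriction nuclease and an oestrogen receptor domain, was transfected with the same siRNAs and was given OHT (4-hydroxytamoxifen), which brings the nuclease into the nucleus, for 1 hour. All 4 groups were taken 48 hours after transfection. The labels do not say whether replicates came from separate cultures or whether U2OS-AsiSI is a single clone, so p-values measure only the spread between these libraries.

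Homologous recombination repairs a broken chromosome by copying an intact sister. The MRE11-RAD50-NBN complex and the nucleases EXO1 and DNA2 cut back one strand at the break, RPA coats the exposed strand, and BRCA1, BRCA2, PALB2 and further mediators prepare that strand for the search for the matching sequence. The Fanconi pathway detects crosslinks between DNA strands, attaches ubiquitin to FANCD2 and FANCI, and hands the lesion to nucleases and to recombination. INTS11 is the endonuclease of Integrator, which binds RNA polymerase II soon after initiation and cuts the nascent RNA.

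Library totals ran from 20704611 to 38065726 counts, and the 39 genes together received between 64617 and 126536 of them. Levels are given as CPM, read counts divided by library size, after TMM scaling, which sets libraries against each other by the bulk of their genes. A count covers the whole span of a gene, introns included. The targeted gene came first as a check of the labels. INTS11 had 10.1, 8.87 and 10.1 CPM in U2OS siCtrl and 7.85, 7.06 and 7.18 CPM in U2OS siINTS11, with no overlap, which is a log2 difference of -0.42 ± 0.09 (SE; adjusted p = 6.08e-05 by edgeR). In U2OS-AsiSI it had 9.63, 10.99 and 9.82 CPM under siCtrl and 9.01, 9.33 and 9.48 CPM under siINTS11, a difference of -0.13 ± 0.08 that did not pass (adjusted p = 0.172) and was 0.06 under library totals alone. Nascent reads do not report the level of the mature mRNA that an siRNA acts on. Of the markers of the osteoblast lineage, RUNX2, COL1A1 and SPARC were between 75.6 and 445.9 CPM, while BGLAP was at 0 in every library and IBSP, SP7, TWIST1 and COL1A2 reached at most 0.458 CPM. ALPL and SPP1, the remaining markers of that list, were lower in level (0.203 to 11.8 CPM) and rose under siINTS11 in both lines, by 1.31 and 2.14 on the log2 scale in U2OS-AsiSI and by 1.47 and 2.41 in U2OS, while RUNX2 and COL1A1 fell in both lines and SPARC in U2OS on the TMM scale. Of the markers of other cell types, PTPRC, CD3E and ALB reached at most 0.256 CPM, and EPCAM and CDH1 (epithelial) and PECAM1 (endothelial) lay between 0.801 and 8.42 CPM. PECAM1 rose by 1.89 ± 0.17 in U2OS-AsiSI and 1.65 ± 0.17 in U2OS, and EPCAM and CDH1 passed as higher in U2OS (0.42 ± 0.11 and 0.25 ± 0.10). The part of these markers in the members' changes was not tested.

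Neighbouring genes decided which members could be measured. In RAD50, which encodes the coiled-coil subunit of the MRE11 complex, 99.7% of the span lies under AC116366.3 on the same strand, and the libraries held 1 to 6 reads. RAD51D, a subunit of the BCDX2 mediator complex, lies to 99.9% under AC004223.3 on its own strand and had 0 or 1 read. Both were left untested, and their near absence from the tables is no measure of their transcription. Same-strand overlap also covered 62.8% of RAD54B, 20.3% of RAD52, 17.4% of BRCA1, 8.76% of ATRIP and 5.41% of ATR. Overlap on the opposite strand did not keep GEN1 from being counted, since it lies to 100% under such a gene and averaged 1813 counts in U2OS siCtrl. Over protein-coding genes almost wholly under genes of the opposite strand, 53.1% had fewer than 10 reads, beside 38.1% without overlap and 90.5% under genes of their own strand. None of the 39 genes reached 0.1 reads per base of span, and the densest, FANCG, had 0.0939.

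Under siCtrl the members differed widely in nascent read density, given as CPM per kb of the span that no gene on the same strand covers. BARD1, the partner of BRCA1 in its ubiquitin ligase, was densest in U2OS at 3.31 ± 0.022 (SD, n = 3), followed by FANCG, a scaffold of the Fanconi core complex, at 3.03 ± 0.19. BRIP1, the helicase FANCJ, followed at 2.61 ± 0.12 and EXO1, the long-range resection exonuclease, at 2.51 ± 0.090. The least dense were RPA3, the smallest RPA subunit, at 0.199 ± 0.015, RBBP8, which encodes the resection factor CtIP, at 0.589 ± 0.019, and ATR, the kinase that answers to RPA-coated DNA, at 0.663 ± 0.038. In U2OS-AsiSI under siCtrl FANCG was first at 3.42 ± 0.27 and BARD1 second at 2.86 ± 0.056. Many neighbours in the order lie within one SD of each other, among them DNA2 and GEN1 in U2OS and GEN1 and MUS81 in U2OS-AsiSI. For some genes the density depends on the annotation: RPA3 spans 82.1 kb in the tables, but its principal transcripts span from 4.04 to 82.1 kb, and those of RBBP8 span 92.7 to 93.2 kb of its 228 kb.

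**Figure D1:**
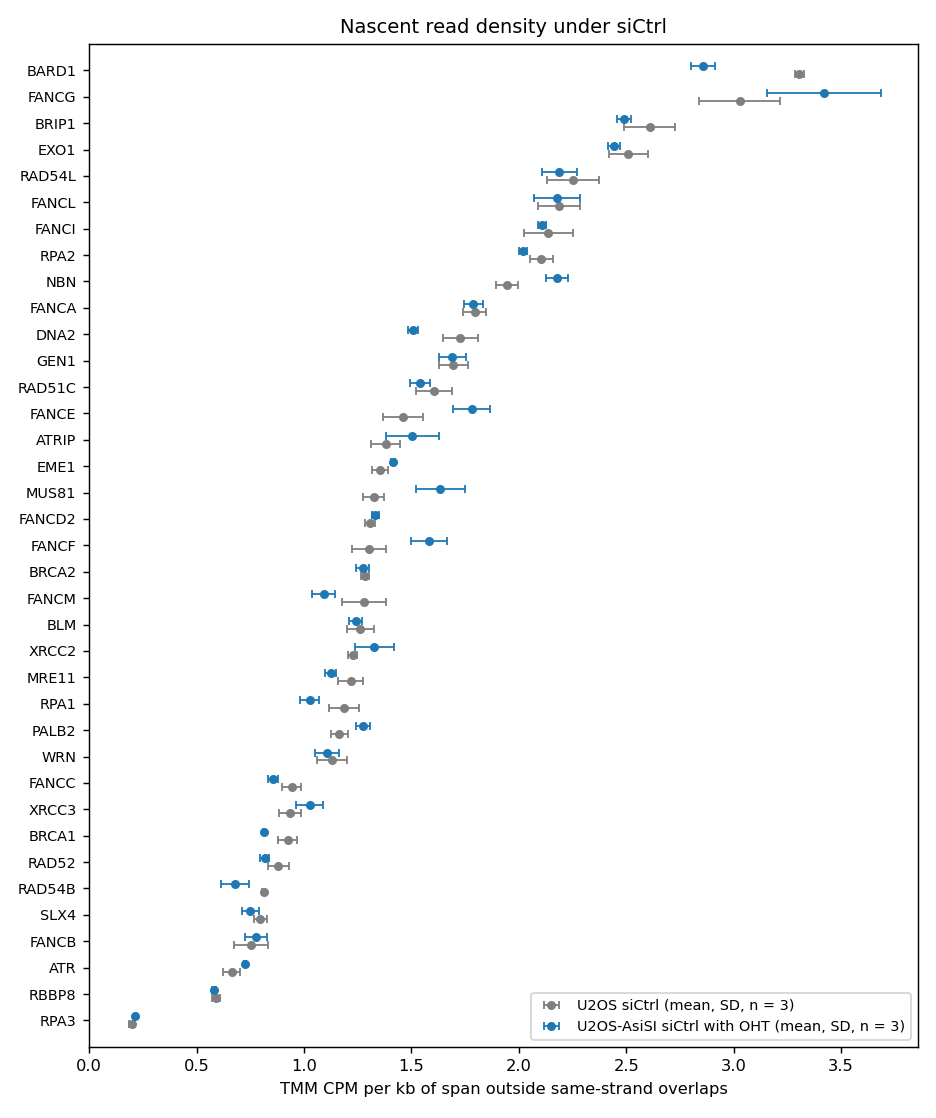
Nascent read density of the 37 measurable genes under siCtrl, in TMM CPM per kb of span outside same-strand overlaps (points: mean of 3 libraries, bars: SD), for U2OS in grey and U2OS-AsiSI with OHT in blue, ordered by the U2OS value. BARD1 and FANCG lie at the top at about 3 CPM per kb, and RPA3 at the bottom at 0.199 in U2OS and 0.215 in U2OS-AsiSI.

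The first comparison asked how these genes differed between the siINTS11 and siCtrl libraries of each line. In U2OS-AsiSI 26 of the 37 tested members fell and 5 rose under siINTS11 at an edgeR adjusted p under 0.05, where 32.6% of all 20441 genes tested were called lower and 35.4% higher. In U2OS 23 fell and 5 rose, where 32.4% of 20687 genes were called lower and 34.5% higher. The median log2 fold change of the members was -0.19 in U2OS-AsiSI and -0.16 in U2OS, beside 0.03 and 0.02 over all genes tested. The changes were small: the members ranged from -0.60 to 0.42 in U2OS-AsiSI and from -0.66 to 0.35 in U2OS. The groups' libraries did not overlap for 25 members lower and 6 higher in U2OS-AsiSI (34.7% and 36.4% of all genes), and for 22 lower and 7 higher in U2OS (31.2% and 38.2%).

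These directions are relative to the bulk of the genes. Scaling by library totals alone moved the median of all genes from 0.03 to 0.22 in U2OS-AsiSI and from 0.02 to 0.22 in U2OS, and it left 11 members lower and 10 higher in U2OS-AsiSI (19.7% and 51.6% of all genes) and 9 lower and 13 higher in U2OS (18.4% and 53% of all genes). The labelled yeast RNA that was added to the samples is not used here, so the total amount of nascent RNA was not measured. Every rise or fall below is on the TMM scale, and members whose sign turned under library totals are named with their group. The counts by role below stand beside 32.6% of all genes lower and 35.4% higher in U2OS-AsiSI, and 32.4% and 34.5% in U2OS. Role groups also differ in gene span, which is set beside the changes further on, and the counts by role are not adjusted for it.

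Both lines called 22 members lower and 4 higher, and no member was called in opposite directions. Lower in both were RBBP8, EXO1, DNA2, BLM, WRN, RPA1, RPA2, ATR, BRCA1, BARD1, PALB2, BRCA2, RAD51C, RAD52, RAD54B, FANCA, FANCB, FANCC, FANCL, FANCM, FANCI and BRIP1. Higher in both were ATRIP, XRCC3, FANCF and EME1. MRE11, NBN, XRCC2 and FANCD2 passed as lower, and MUS81 as higher, in U2OS-AsiSI alone, while SLX4 passed as lower and FANCE as higher in U2OS alone. RPA3, RAD54L, FANCG and GEN1 passed in neither. Across the 37 members the log2 fold changes of the lines, which share no libraries, had a Spearman rho of 0.86. The share of all genes called the same way in both lines was not counted, nor was that rho taken over all genes. The overlap between lines can therefore not be read as particular to the members.

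**Figure D2:**
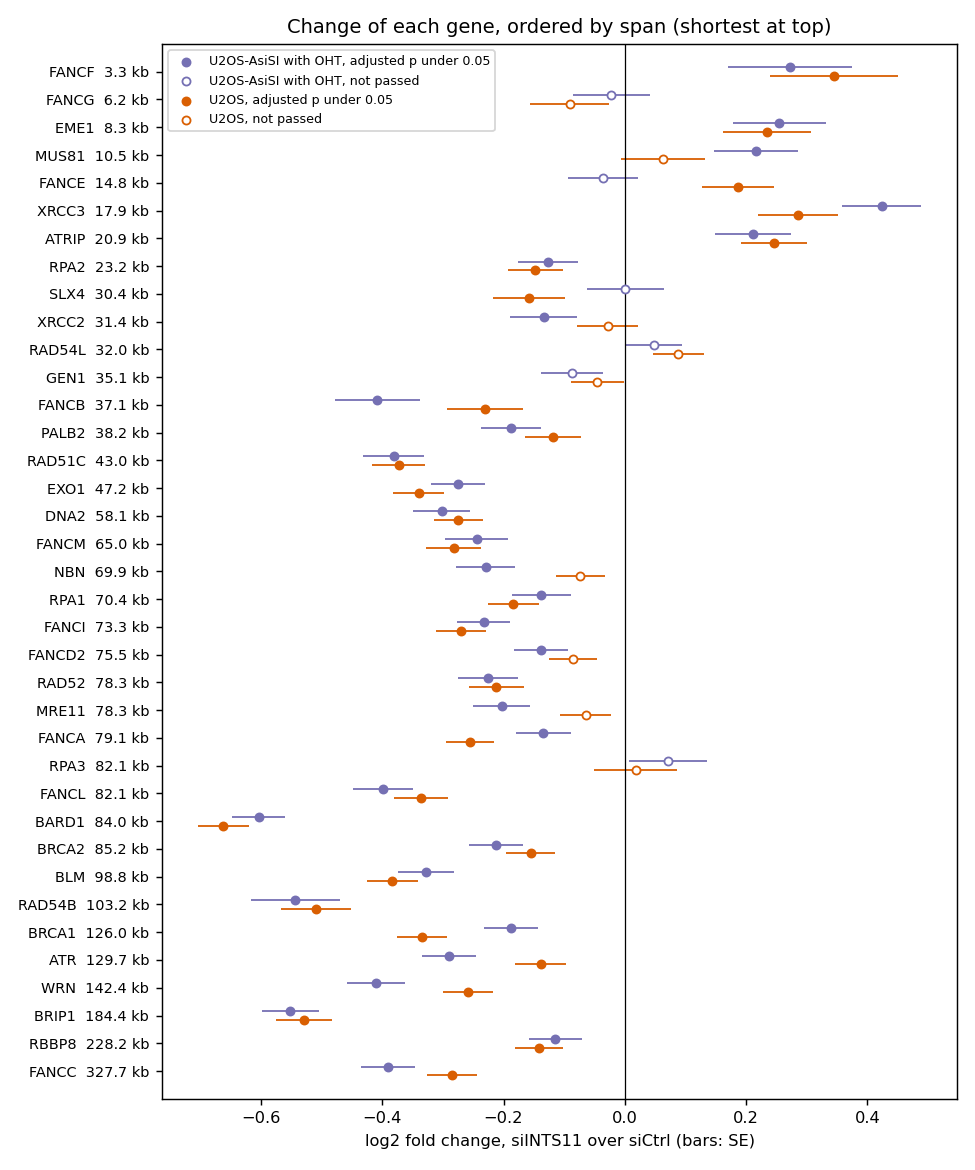
Log2 fold change of siINTS11 over siCtrl for each of the 37 tested genes (points, bars: SE), ordered by span, with U2OS-AsiSI in purple and U2OS in orange and filled points for adjusted p under 0.05. All 8 genes of 90 kb or longer were lower in both lines on the TMM scale, and the 5 higher genes of each line lie among the shortest; under library totals alone RBBP8, BRCA1 and ATR turned positive in one line or both.

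Of the break-sensing, resection and unwinding genes 7 of 7 tested were lower in U2OS-AsiSI, with a median of -0.28. In U2OS 5 of 7 were lower, with a median of -0.26. All 7 are fairly long genes. In the deciles of span that hold them, 43.1% to 68.3% of protein-coding genes were lower in U2OS-AsiSI and 43.9% to 66.6% in U2OS. By library totals alone 3 of these 7 genes (DNA2, BLM and WRN) were lower in U2OS-AsiSI and none higher. In U2OS EXO1 and BLM were then lower while MRE11 and NBN were higher. RBBP8 turned positive under totals in both lines. WRN, a RecQ helicase and exonuclease with a span of 142 kb at chr8:31033788-31176138 (plus strand, hg38), had 167, 155 and 151 CPM in U2OS-AsiSI siCtrl and 123, 119 and 113 CPM in siINTS11. In U2OS it had 150, 165 and 168 CPM under siCtrl and 139, 133 and 140 CPM under siINTS11. The siRNA groups did not overlap in either line, and the log2 fold changes were -0.41 ± 0.05 (SE; adjusted p = 7.91e-09) and -0.26 ± 0.04 (adjusted p = 7.61e-07).

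BLM, the RecQ helicase that dissolves joined DNA molecules, spans 98.8 kb at chr15:90717346-90816166 (plus strand). It had 117, 129 and 128 CPM in U2OS siCtrl and 103, 95.4 and 94.9 CPM in siINTS11, and 120, 126 and 122 against 98.7, 100 and 93.6 CPM in U2OS-AsiSI. All siINTS11 libraries of a line lay below all its siCtrl libraries. The fall was 23.3% in U2OS and 20.3% in U2OS-AsiSI (adjusted p = 1.02e-10 and 2.27e-07). EXO1 fell by 21% in U2OS and 17.4% in U2OS-AsiSI, and DNA2, a nuclease and helicase of long-range resection, fell by 17.3% and 18.9%. RBBP8 changed least of those called in each line: it fell by 9.35% in U2OS and fell by 7.65% in U2OS-AsiSI. MRE11, the nuclease of the complex that binds the break, fell by 13.1% in U2OS-AsiSI (adjusted p = 0.000403) and stood at -0.06 ± 0.04 in U2OS (adjusted p = 0.173). NBN, its partner that recruits ATM, fell by 14.7% in U2OS-AsiSI (adjusted p = 0.000135) and stood at -0.07 ± 0.04 in U2OS (adjusted p = 0.104).

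Of the RPA genes, whose product coats single-stranded DNA, RPA1 and RPA2 fell in both lines and RPA3 passed in neither. RPA1, the large DNA-binding subunit, changed by -0.14 ± 0.05 in U2OS-AsiSI and -0.18 ± 0.04 in U2OS, and RPA2, the subunit phosphorylated after damage, by -0.13 ± 0.05 and -0.15 ± 0.04; both turned positive under library totals in both lines. RPA3 stood at 0.07 ± 0.06 and 0.02 ± 0.07.

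The kinase ATR and its partner ATRIP, which brings it to RPA, moved in opposite directions. ATR, with a span of 130 kb, fell by 18.2% in U2OS-AsiSI and by 9.15% in U2OS (adjusted p = 1.53e-06 and 0.00391), with overlapping groups in U2OS, where it turned positive under library totals. ATRIP, with a span of 20.9 kb at chr3:48446710-48467645 (plus strand), had 26.9, 27.3 and 24.9 CPM in U2OS siCtrl and 31.6, 32.9 and 31.4 CPM in siINTS11. In U2OS-AsiSI it had 26.01, 29.8 and 30.4 CPM under siCtrl and 31.0, 35.7 and 33.1 CPM under siINTS11. The siINTS11 libraries were the higher ones in both lines, narrowly so in U2OS-AsiSI, and the rises were 0.25 ± 0.05 and 0.21 ± 0.06 (adjusted p = 0.000119 and 0.00356).

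Among the BRCA complex and the recombination mediators 8 of 10 tested fell and 1 rose in U2OS-AsiSI, and 7 fell and 1 rose in U2OS. Under library totals 3 were lower and 2 higher in U2OS-AsiSI, and 4 lower and 3 higher in U2OS, with BRCA1 turning positive in U2OS-AsiSI, BRCA2 in U2OS, and PALB2 and XRCC2 in both lines. BARD1 changed most of all members in both lines. It spans 84.0 kb at chr2:214725646-214809683 (minus strand) and had 278, 276 and 280 CPM in U2OS siCtrl against 183, 167 and 187 CPM in siINTS11. In U2OS-AsiSI it had 242, 244 and 235 CPM against 159, 160 and 153 CPM. The groups lay far apart beside a spread of 1.88 to 10.6 CPM (SD) within a group. The fall was 36.8% in U2OS and 34.2% in U2OS-AsiSI (adjusted p = 8.62e-18 and 3.24e-13).

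RAD54B, a DNA translocase related to RAD54, spans 103 kb at chr8:94371960-94475115 (minus strand), of which 62.8% lies under FSBP on the same strand. FSBP had 0 reads in all libraries. As for RAD50 and RAD51D, this is no measure of its transcription if reads in same-strand overlaps were dropped. The values of RAD54B then rest on the other 38.4 kb. RAD54B had 31.01, 31.05 and 31.5 CPM in U2OS siCtrl and 21.3, 21.3 and 24.5 CPM in siINTS11, and 28.7, 25.6 and 23.9 against 20.04, 16.1 and 17.2 CPM in U2OS-AsiSI. No siINTS11 library reached a siCtrl library of its line, and the log2 fold changes were -0.51 ± 0.06 and -0.54 ± 0.07 (adjusted p = 3.5e-10 and 1.26e-07). RAD51C, a subunit of the BCDX2 and CX3 mediator complexes, fell by 22.8% in U2OS and 23.2% in U2OS-AsiSI. BRCA1 fell by 20.7% and 12.2%, BRCA2, which acts with PALB2 on the resected strand, by 10.2% and 13.7%, and RAD52, a strand-annealing protein, by 13.7% and 14.4%. PALB2, which joins BRCA1 and BRCA2, fell by 7.87% in U2OS and by 12.2% in U2OS-AsiSI. XRCC2, a further BCDX2 subunit, fell by 8.86% in U2OS-AsiSI with overlapping groups (adjusted p = 0.0321) and did not pass in U2OS. RAD54L, which encodes the RAD54 translocase, stood at 0.05 ± 0.05 in U2OS-AsiSI and 0.09 ± 0.04 in U2OS (adjusted p = 0.373 and 0.0637).

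XRCC3, which pairs with RAD51C in CX3, rose while its partner fell. It spans 17.9 kb at chr14:103697609-103715504 (minus strand). In U2OS-AsiSI it had 17.2, 19.5 and 18.4 CPM under siCtrl and 22.7, 25.7 and 25.5 CPM under siINTS11, and in U2OS 17.4, 15.7 and 17.02 CPM against 22.3, 20.6 and 19.3 CPM. The siINTS11 libraries were above all siCtrl libraries of their line. The rise of 34.1% in U2OS-AsiSI was the largest of any member (0.42 ± 0.07, adjusted p = 1.3e-06), beside 21.9% in U2OS (adjusted p = 0.000218).

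In the Fanconi core complex, the ubiquitin ligase of the pathway, 5 of 8 members fell and 1 rose in U2OS-AsiSI, and 5 fell and 2 rose in U2OS. Under library totals 3 were lower and 3 higher in U2OS-AsiSI and 2 lower and 2 higher in U2OS, with FANCA turning positive in U2OS-AsiSI and FANCG, which passed in neither line, in both. FANCC, the longest member at 328 kb (chr9:95099054-95426796, minus strand), had 293, 309 and 323 CPM in U2OS siCtrl against 251, 256 and 266 CPM in siINTS11. In U2OS-AsiSI the values were 288, 279 and 273 CPM against 217, 211 and 211 CPM. The groups did not overlap, and FANCC fell by 17.9% in U2OS and fell by 23.7% in U2OS-AsiSI (adjusted p = 1.02e-07 and 4.54e-09).

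FANCB, a core subunit encoded on the X chromosome, fell by 24.6% in U2OS-AsiSI and 14.8% in U2OS. FANCL, the subunit with ligase activity, fell by 24.1% and 20.8%. FANCM, the DNA translocase that anchors the complex, fell by 15.6% and 17.7%, and FANCA, a core scaffold, by 8.88% and 16.3%. FANCF, an adaptor and the shortest member at 3.29 kb, went the other way, with 5.09, 5.01 and 5.51 CPM in U2OS-AsiSI siCtrl against 6.21, 6.82 and 5.82 CPM in siINTS11, and 4.19, 4.10 and 4.58 CPM in U2OS against 5.34, 5.69 and 5.62 CPM. The siINTS11 libraries were higher without overlap, and the rises were 0.27 ± 0.10 and 0.35 ± 0.10 (adjusted p = 0.0199 and 0.00394) on means of 130 to 176 counts. FANCE, which binds FANCD2, rose by 13.8% in U2OS (adjusted p = 0.00569) and stood at -0.04 ± 0.06 in U2OS-AsiSI, a value that turned positive and passed under library totals.

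The FANCD2-FANCI clamp and the helicase BRIP1 fell in U2OS-AsiSI (3 of 3), and FANCI and BRIP1 fell in U2OS. Under library totals BRIP1 alone of these was lower in each line, and FANCD2 turned positive in both. BRIP1 spans 184 kb at chr17:61679139-61863528 (minus strand) and carries the most reads of the 39 genes. It had 466, 471 and 506 CPM in U2OS siCtrl and 351, 312 and 358 CPM in siINTS11, and 461, 463 and 452 against 314, 328 and 294 CPM in U2OS-AsiSI. The groups were far apart in both lines, and BRIP1 fell by 30.7% in U2OS and fell by 31.8% in U2OS-AsiSI (adjusted p = 6.86e-13 and 7.94e-12). FANCI fell by 17.1% in U2OS and 14.9% in U2OS-AsiSI, and FANCD2 fell by 9.13% in U2OS-AsiSI (adjusted p = 0.00695), against -0.09 ± 0.04 in U2OS (adjusted p = 0.0533).

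The junction nucleases, which cut joined DNA molecules late in repair, held no called fall in U2OS-AsiSI. MUS81 and EME1, the subunits of a single nuclease, rose there, and under library totals SLX4 passed as higher with them. EME1, with a span of 8.26 kb at chr17:50373220-50381483 (plus strand), had 11.7, 11.7 and 11.8 CPM in U2OS-AsiSI siCtrl and 12.7, 13.7 and 15.2 CPM in siINTS11, and 11.1, 10.96 and 11.5 CPM in U2OS against 13.5, 13.4 and 13.4 CPM. MUS81, with a span of 10.5 kb at chr11:65857126-65867653 (plus strand), had 15.97, 18.4 and 17.3 CPM in U2OS-AsiSI siCtrl and 18.5, 19.98 and 21.4 CPM in siINTS11, and 14.4, 13.4 and 14.1 CPM in U2OS against 15.2, 14.9 and 14.5 CPM. In each case the siINTS11 libraries were the higher ones, by little for MUS81. EME1 rose by 19.3% and 17.6% (adjusted p = 0.00431 and 0.00456), and MUS81 by 16.2% in U2OS-AsiSI (adjusted p = 0.00691) with 0.06 ± 0.07 in U2OS (adjusted p = 0.427). Without replicate 3 of U2OS-AsiSI siINTS11 neither passed there, which left 3 members higher. SLX4, the scaffold that gathers these nucleases, fell by 10.4% in U2OS (adjusted p = 0.0174), where library totals turned it positive, and stood at 0.00 ± 0.06 in U2OS-AsiSI. GEN1, a second resolvase, stood at -0.09 ± 0.05 in U2OS-AsiSI and at -0.05 ± 0.04 in U2OS, and library totals turned both values positive.

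**Figure D3:**
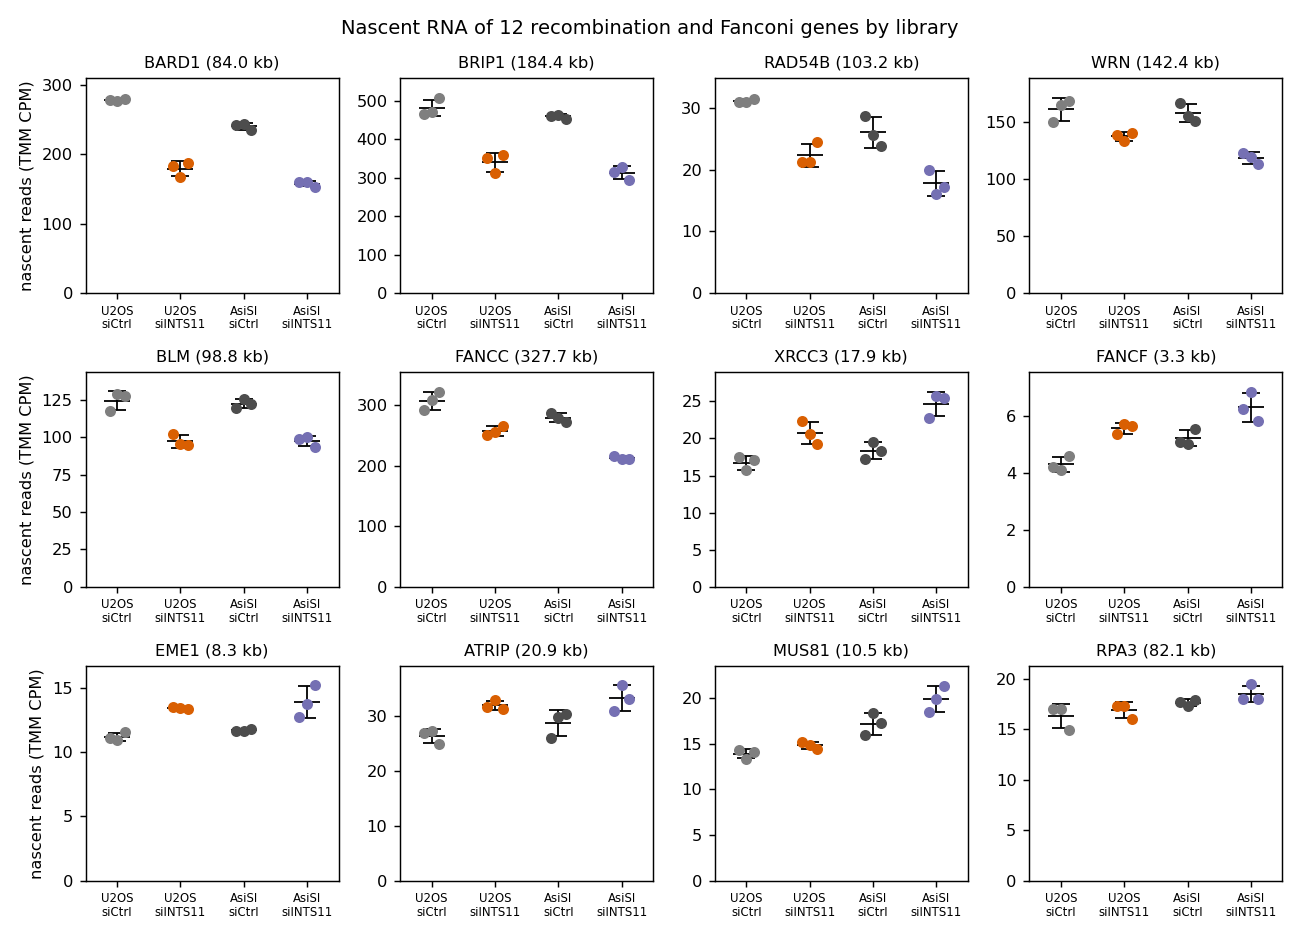
Nascent reads of 12 of the genes in each of the 12 libraries (TMM CPM, axes from 0; points: libraries, bars: mean and SD, n = 3). BARD1, BRIP1, RAD54B, WRN, BLM and FANCC were lower and XRCC3, FANCF, EME1 and ATRIP higher under siINTS11 in both lines on the TMM scale, MUS81 passed in U2OS-AsiSI only, and RPA3 passed in neither.

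The changes followed gene span. Of the 8 members under 25 kb, 1 fell (RPA2) and 5 rose in each line, where 17% of protein-coding genes of that span were called lower and 41% higher in U2OS-AsiSI, and 16.4% and 38.6% in U2OS. Of the 9 from 25 to 60 kb, 6 fell and none rose in each line, beside 39.6% lower and 26.3% higher in U2OS-AsiSI and 38.9% and 26.1% in U2OS. Of the 12 from 60 to 90 kb, 11 fell in U2OS-AsiSI, beside 53.9% of protein-coding genes, and 8 in U2OS, beside 55.6%. All 8 of 90 kb or longer fell in both lines, where 65% and 64.6% of protein-coding genes did. Spearman's rho between span and log2 fold change across the 37 members was -0.68 in U2OS-AsiSI and -0.64 in U2OS, and -0.76 and -0.71 with the span of the shortest principal transcript. Protein-coding genes as a whole showed a slope of the same sign, with rho of -0.37 over 13774 genes in U2OS-AsiSI and -0.34 over 13832 genes in U2OS. These correlations run across genes that share their libraries and are descriptions only.

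Each member was therefore set beside the median of protein-coding genes in its decile of span. In U2OS-AsiSI 21 of 37 members lay below that median and in U2OS 23 of 37, with a median distance of -0.06 and -0.05. BARD1 lay 0.39 below in U2OS-AsiSI, where genes of its span had a median of -0.21 and BARD1 stood at -0.60. FANCB (37.1 kb) stood at -0.41 beside -0.03, RAD54B at -0.54 beside -0.21, and RAD51C at -0.38 beside -0.09. XRCC3 stood at 0.42 beside 0.08, RPA3 at 0.07 beside -0.21, and RBBP8 at -0.11 beside -0.33. These deciles use the span in the tables. The shortest principal transcript spans 4.04 kb for RPA3, against 82.1 kb, and 92.7 kb for RBBP8, against 228 kb. Genes of 0.129 to 6.84 kb had a median of 0.21, so the place of RPA3 above its decile depends on the annotation. RAD52, BRCA2, MRE11, ATR, RPA1 and FANCD2 lay between -0.01 and 0.01 of the median of their decile in U2OS-AsiSI.

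**Figure D4:**
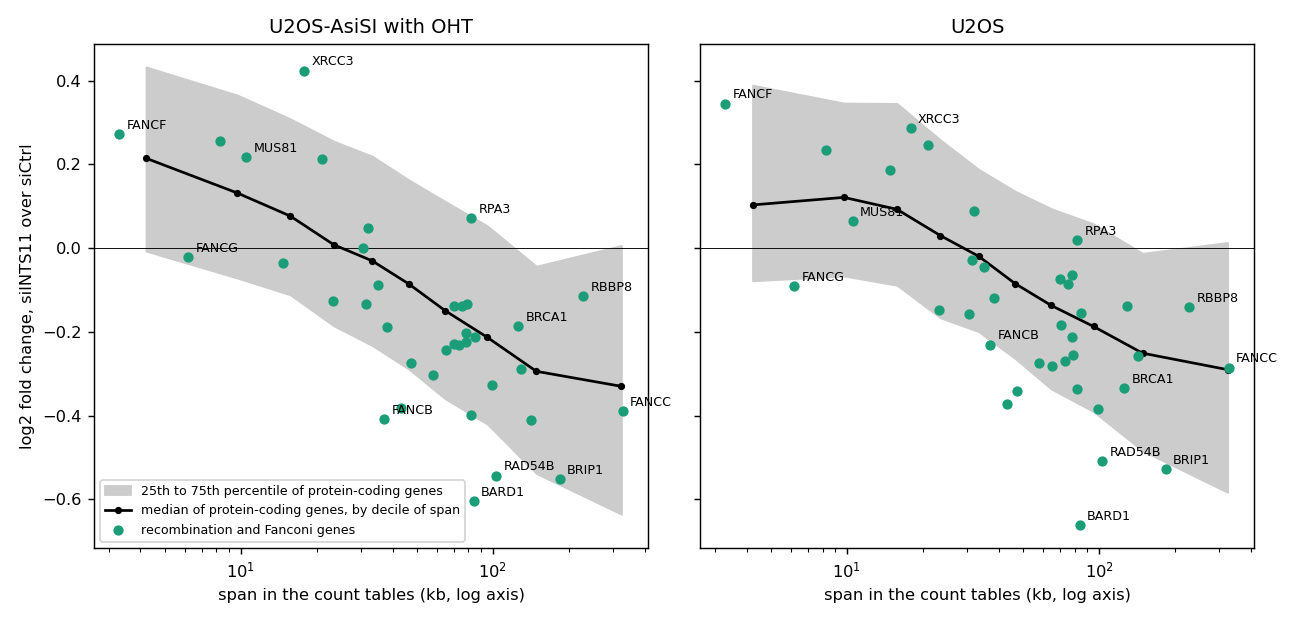
Log2 fold change of siINTS11 over siCtrl on the TMM scale against gene span (log axis) for the 37 genes (green), with the median (black line) and the 25th to 75th percentile (grey) of protein-coding genes in each decile of span. The median falls with span throughout in U2OS-AsiSI and from the second decile on in U2OS. BARD1, RAD54B and RAD51C are among the genes below the grey band in both lines, and XRCC3 lies above it in U2OS-AsiSI.

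With the trend of each library on span removed, an adjustment chosen after seeing the data, 21 members were lower and 4 higher in U2OS-AsiSI (33.9% and 31.4% of all genes), and 21 were lower and 2 higher in U2OS (34.2% and 31.6%). Of the 26 lower calls in U2OS-AsiSI 19 were kept. BARD1 stood at -0.48 ± 0.04 (adjusted p = 1.58e-12), FANCB at -0.40 ± 0.07, RAD54B at -0.38 ± 0.07, RAD51C at -0.36 ± 0.05 and BRIP1 at -0.33 ± 0.04. BRCA1, BRCA2, MRE11, RPA1, FANCA and FANCD2 no longer passed, RBBP8 turned to 0.12 ± 0.04 and passed as higher (adjusted p = 0.00838), and RPA3 passed as higher at 0.19 ± 0.06. For RBBP8 and RPA3 the trend was taken at the span in the tables, which is longer than that of their shortest principal transcript. FANCE and FANCG, which had not passed, were lower. XRCC3 and ATRIP remained higher in both lines (0.32 ± 0.06 and 0.13 ± 0.06 in U2OS-AsiSI), while FANCF, EME1 and MUS81 no longer passed. In U2OS 20 of the 23 lower calls were kept, and RBBP8, ATR and BRCA2 were lost.

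The start sites of the genes with the largest changes were read from RefSeq windows of 300 bases, 250 before and 50 after the start (GRCh38.p14), which 32 of the 39 genes had. The windows were searched on both strands for the E2F words TTTCCCGC, TTTCGCGC, TTTGCCGC and TTTGGCGC, for the cell cycle element CHR (TTTGAA or TTCGAA), for CCAAT, for the NRF1 word by name, and for the AsiSI site. An E2F word was found in 6 of the 32 genes (18.8%; EXO1, FANCA, FANCC, FANCD2, GEN1 and XRCC2) and in 3.99% of 27305 genes with a window, a CHR in 9.38% and 19.5%, CCAAT in 43.8% and 39.7%, and the NRF1 word in 6.25% and 1.52%. The AsiSI site was in none of the 32 and in 0.256% of all. The sequences before the start are shown for the genes that fell and rose most and for the longest gene, each cut to bases outside annotated exons, written 5′ to 3′ on the minus strand, which all of them use, with CCAAT, CHR and E2F matches in capitals:
BARD1 (chr2:214809712-214809933): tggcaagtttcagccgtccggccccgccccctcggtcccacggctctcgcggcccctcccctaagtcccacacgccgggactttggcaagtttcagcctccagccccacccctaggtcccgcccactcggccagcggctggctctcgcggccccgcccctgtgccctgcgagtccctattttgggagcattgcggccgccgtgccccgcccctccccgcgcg
BRIP1 (chr17:61863529-61863778): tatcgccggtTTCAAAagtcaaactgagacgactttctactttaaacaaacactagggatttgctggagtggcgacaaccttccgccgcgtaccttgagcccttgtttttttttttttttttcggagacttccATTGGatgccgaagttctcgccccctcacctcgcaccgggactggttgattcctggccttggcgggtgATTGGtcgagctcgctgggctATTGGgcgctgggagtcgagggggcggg
XRCC3 (chr14:103715505-103715701): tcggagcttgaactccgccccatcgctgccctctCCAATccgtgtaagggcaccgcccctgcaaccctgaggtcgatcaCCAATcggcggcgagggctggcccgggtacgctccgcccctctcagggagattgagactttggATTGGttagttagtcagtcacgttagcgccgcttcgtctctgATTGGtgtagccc
FANCC (chr9:95317710-95317959): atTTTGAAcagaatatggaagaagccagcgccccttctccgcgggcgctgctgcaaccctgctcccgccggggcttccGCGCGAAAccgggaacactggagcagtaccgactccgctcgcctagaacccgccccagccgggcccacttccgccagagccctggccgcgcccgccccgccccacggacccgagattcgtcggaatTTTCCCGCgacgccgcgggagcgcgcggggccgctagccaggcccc
BARD1 holds none of these words in the printed stretch, BRIP1 and XRCC3, which moved in opposite directions, hold 3 and 4 CCAAT matches, and FANCC holds a pair of E2F words. BRIP1 and FANCC also hold a CHR match each. The printed FANCC start lies 109 kb inside the span of the tables. The stretch before another FANCC start (chr9:95317255-95317504) holds no CCAAT, CHR or E2F match. A match is only a run of letters, and binding was not measured.

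Whether the siINTS11 effect differed between the lines was tested with an interaction term fitted to the 12 libraries together. No member passed with edgeR (3.87% of 21521 genes did), 6 of 37 had an unadjusted p under 0.05, and DESeq2 called none. The differences with the smallest adjusted p, U2OS-AsiSI minus U2OS, were -0.26 ± 0.08 for FANCE (adjusted p = 0.0658), -0.19 ± 0.06 for ATR (adjusted p = 0.0773), -0.19 ± 0.07 for NBN (adjusted p = 0.0904) and -0.19 ± 0.07 for WRN (adjusted p = 0.107), and FANCB had a difference of -0.21 ± 0.11 (adjusted p = 0.298). The members that passed in a single line are therefore not shown to differ between lines. Without replicate 1 of U2OS-AsiSI siINTS11, NBN passed, and with the replicate number as a block NBN, WRN and ATR passed as lower.

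Under siCtrl the lines differed by the nuclease and by OHT, which the labels name for U2OS-AsiSI alone. They may also differ by their culture as separate lines, which the labels do not describe, and these cannot be told apart. This comparison shares its siCtrl libraries with the siINTS11 comparisons. Of the 37 members 8 were lower and 7 higher in U2OS-AsiSI than in U2OS (17.2% and 17.8% of 19935 genes). Lower were RAD54B (-0.25 ± 0.06), FANCM (-0.22 ± 0.05), BARD1 (-0.21 ± 0.04), RPA1 (-0.20 ± 0.05), DNA2 (-0.20 ± 0.04), BRCA1 (-0.18 ± 0.04), FANCC (-0.13 ± 0.04) and MRE11 (-0.11 ± 0.05). Higher were MUS81 (0.31 ± 0.07), FANCE (0.29 ± 0.06), FANCF (0.28 ± 0.11), FANCG (0.18 ± 0.07), NBN (0.17 ± 0.04), PALB2 (0.13 ± 0.05) and ATR (0.13 ± 0.05). Here too the higher members include the short genes FANCE, FANCF, FANCG and MUS81, and rho with span was -0.50 over the members and -0.48 over protein-coding genes. The higher count rested on single libraries: it was 3 without replicate 2 and 4 without replicate 3 of U2OS-AsiSI siCtrl. Genes of the cell cycle moved beside these values: of the G1/S genes 10 of 17 tested were higher and 1 lower in U2OS-AsiSI, and of the G2/M genes 11 of 18 were lower and none higher. Under siINTS11 the G2/M genes were 11 lower and 2 higher in U2OS-AsiSI and 12 lower and 1 higher in U2OS, and the G1/S genes 4 lower and 3 higher, and 6 lower and 1 higher, of 17. Of all genes, 32.6% were lower and 35.4% higher in U2OS-AsiSI, and 32.4% and 34.5% in U2OS. Under library totals alone the G2/M genes were 4 lower and 7 higher in U2OS-AsiSI and 2 lower and 7 higher in U2OS, and the G1/S genes 2 lower and 12 higher, and 2 lower and 10 higher. The shares of all genes were then 19.7% lower and 51.6% higher in U2OS-AsiSI, and 18.4% and 53% in U2OS. With the span trend removed, the G2/M genes under siINTS11 were 13 of 18 lower in U2OS-AsiSI and 16 of 18 in U2OS, with 0 higher in either line. The G1/S genes were then 9 lower and 2 higher of 17 in U2OS-AsiSI, and 12 lower and 2 higher in U2OS. Beside them, 33.9% of all genes were lower and 31.4% higher in U2OS-AsiSI, and 34.2% and 31.6% in U2OS. The part of cell cycle phase in the members' changes was not tested.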

How the data were processed

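The authors deposited raw counts of reads per gene, whole numbers in the featureCounts column layout per the file headers, each over the full gene span. The submitters' processing notes name Trimmomatic 0.36, STAR 2.7, deepTools, featureCounts and hg38; strand setting, duplicate handling and multi-mapping are not given in the sources used here. By the values, reads appear to have been assigned by strand and dropped where genes of the same strand overlap. Columns were matched to samples by name, and 0 columns had no sample.

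The fits used edgeR 4.0.16 (R 4.3.3) over all genes left by filterByExpr (TMM, glmQLFit robust, glmQLFTest, two-sided) on the 6 libraries compared, or 12 for the difference between lines, with Benjamini-Hochberg adjustment over all genes tested and a threshold of 0.05. SEs are from the F statistic. CPM are on a TMM scale common to the 12 libraries, so they can differ slightly from the fitted changes. Gene types and principal transcripts came from GENCODE 29, overlaps from the gene coordinates deposited with the counts, and promoters from RefSeq.

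The members and lists were chosen with earlier results of these data known. Per siINTS11 comparison, the 4 called members lowest and the 4 highest in log2 fold change, from members averaging 100 counts or more in their higher group whose libraries do not overlap, are given by library, with INTS11 and the shortest and longest member. In the other comparisons all called members are named, and of the other pathway genes up to 4 with the smallest adjusted p in U2OS-AsiSI. The groups by role follow textbook function. One of the other pathway genes is not reported here.

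In simulated data with 200 changed genes, 96% of 2-fold and 65% of 1.3-fold changes were recovered in the U2OS-AsiSI design (20123 genes), 93% and 62% in U2OS (20359 genes), 88% and 40% in the test between lines (21095 genes) and 96% and 63% between lines under siCtrl (19702 genes), with 5.85%, 4.32%, 3.03% and 5.92% false calls. Replicates differed by more than sampling noise (chi-square per degree of freedom 2.11 to 3.10), so no libraries were merged.

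Other settings tried were DESeq2 1.42.0, median-of-ratios scaling, scaling by library totals alone, leaving genes unfiltered, a minimum mean of 50 counts, a replicate block, genes under 0.1 reads per base, libraries thinned to the smallest total, spans of at least 10 kb and each library left out. Removal of the span trend (lowess, span 0.3) was added after seeing the data.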

Additional observations from a re-analysis of the deposited data

How the results depend on the processing

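Of 31 calls under siINTS11 in U2OS-AsiSI 13 held in every setting run and 19 in all but library totals alone. In U2OS these were 11 and 19 of 28, and between lines under siCtrl 7 of 15 in both. Under library totals alone 11 members were lower and 10 higher in U2OS-AsiSI, with a median of 0.0026, and 9 lower and 13 higher in U2OS, with a median of 0.044. Signs then turned in U2OS-AsiSI for RBBP8 (0.075), RPA1 (0.052), RPA2 (0.063), BRCA1 (0.0028), PALB2 (0.0026), XRCC2 (0.055), FANCA (0.056), FANCD2 (0.052), FANCE (0.15), FANCG (0.17) and GEN1 (0.10). In U2OS they turned for MRE11 (0.13), NBN (0.13), RBBP8 (0.058), RPA1 (0.016), RPA2 (0.052), ATR (0.061), PALB2 (0.081), BRCA2 (0.044), XRCC2 (0.17), FANCD2 (0.11), SLX4 (0.041), GEN1 (0.15) and FANCG (0.11). The scaling itself shifts every gene up together, since it moved the median of all genes.

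Removal of the span trend turned the sign of some members that were called before or after it. These were RBBP8 (0.12), BRCA1 (0.0046) and FANCF (-0.027) in U2OS-AsiSI, RBBP8 (0.055) and ATR (0.026) in U2OS, and RBBP8 (0.11) between lines. Among members called neither before nor after it, SLX4 (-0.022) turned in U2OS-AsiSI. In U2OS MRE11 (0.037), NBN (0.014), FANCD2 (0.011) and MUS81 (-0.13) did. Between lines under siCtrl, FANCI and BRIP1 were among those that turned. The medians were then -0.13, -0.11 with 2 members higher in U2OS, -0.0055 for the difference between lines and 0.046 between lines under siCtrl, where library totals gave 0.045.

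The members' median in U2OS-AsiSI was -0.21 with median-of-ratios factors and with DESeq2, -0.13 for genes averaging 50 counts or more, -0.16 for genes under 0.1 reads per base and -0.14 for spans of at least 10 kb. In U2OS it was -0.11 for genes averaging 50 counts or more. The median difference between lines was -0.024 with median-of-ratios factors and with DESeq2, -0.0073 without a filter and 0.013 for genes averaging 50 counts or more, and the cause was not tested. Between lines under siCtrl the higher members numbered 3 with DESeq2 and 4 in thinned libraries.

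Leaving out a library gave 21 to 27 members lower, 3 to 5 higher and a median of -0.19 to -0.18 in U2OS-AsiSI, and 21 to 24, 5 to 6 and -0.18 to -0.13 in U2OS. For the difference between lines it gave 0 to 1 lower, 0 higher and -0.054 to -0.022. Between lines under siCtrl it gave 6 to 9 lower, 3 to 7 higher and -0.031 to 0.019.

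Replicate numbers did not pair the samples: correlations of same-numbered deviations ran from -0.11 to 0.14, and not every library matched its own number best. With the replicate number as a block, 3 members (NBN, WRN and ATR) passed as lower for the difference between lines, 4 were higher between lines under siCtrl, and no call under siINTS11 was lost in either line.

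In simulated data for U2OS-AsiSI 65% of 1.3-fold changes were recovered, and most changes described here are smaller than that. Far fewer genes were changed there than the 13893 of 20441 that passed in the measured data. An adjusted p under 0.05 was therefore harder to reach there, and that share cannot be read as the recovery for the members. With libraries thinned to the smallest total, 30 of 31 siINTS11 calls were kept in U2OS-AsiSI and 25 of 28 in U2OS. Between lines under siCtrl 11 of 15 were kept. RAD50 and RAD51D could not be measured by this counting. Intervals and SEs cover the spread between these libraries and, without molecular identifiers, not the number of independent molecules.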

Other observations

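Beyond the 39 genes, 44 of 48 other genes of the same pathways were tested, among them genes of the checkpoint clamp and of ubiquitin signalling. In U2OS-AsiSI 17 (38.6%) were lower and 13 (29.5%) higher under siINTS11 on the TMM scale, with a median of -0.05. Of all genes tested there, 32.6% were lower and 35.4% higher. In U2OS 16 (36.4%) were lower and 12 (27.3%) higher with a median of -0.09, beside 32.4% and 34.5% of all genes. Under library totals alone 9 were lower and 20 higher in U2OS-AsiSI (19.7% and 51.6% of all genes). In U2OS 6 were then lower and 23 higher (18.4% and 53% of all genes). FAAP20, a ubiquitin-binding partner of FANCA with a span of 28.3 kb, had 9.29, 8.73 and 8.62 CPM in U2OS-AsiSI siCtrl and 14.9, 14.7 and 15.6 CPM in siINTS11, a rise of 70.8% (edgeR adjusted p = 2.14e-10) beside 53.2% in U2OS. RAD9A, a subunit of the checkpoint clamp with a span in the tables of 80.5 kb, rose by 46.4% and 38.6%. The spans of principal transcripts, which can be shorter, are not given for these other genes. RAD51B, a BCDX2 subunit with a span of 910 kb, fell by 26.4% and 20.8%, and ZGRF1, a helicase of crosslink repair, fell by 26.6% and 26.7%.

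Several members share a start region with a gene on the opposite strand, within 1 kb. Of 15 such partners tested, 3 were lower and 5 higher in U2OS-AsiSI and 5 lower and 5 higher in U2OS. Of all genes tested, 32.6% were lower and 35.4% higher in U2OS-AsiSI, and 32.4% and 34.5% in U2OS. The partners had medians of 0.0028 and 0.08, and the members beside them -0.20 and -0.21. Non-coding genes are among the partners, and the 11 protein-coding ones had medians of -0.04 and 0.02. The following pairs were picked after their values were seen. TEX14, which starts 518 bases from RAD51C, rose from 4.77 to 16.6 CPM in U2OS (log2 fold change 1.77 ± 0.08) and from 4.51 to 15.2 CPM in U2OS-AsiSI (1.75 ± 0.09), while RAD51C fell by 0.37 and 0.38. CRTC3-AS1 beside BLM stood at 0.79 ± 0.09 in U2OS and 0.73 ± 0.10 in U2OS-AsiSI, where BLM stood at -0.38 and -0.33. MOSPD2 beside FANCB fell with it, by 0.45 and 0.62. Counts cover whole spans, so reads near the shared start and reads farther on were not separated.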
